A study of Homo sapiens with 12 samples.

Results

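The genes described are 6 IGF-binding proteins, IGFBP2, IGFBP3, IGFBP4, IGFBP5, IGFBP6 and IGFBP7, and the receptors IGF1R and IGF2R. They were taken by symbol, and make up 8 of the 20307 genes in the deposited expression table. They were selected on values already known from earlier work on the same 12 libraries, their levels and the fold changes between the groups, so their values are given as a description, and counts of members past a threshold support nothing. Another 65 genes of the IGF pathway, listed by role, are set beside them.

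RNA-seq libraries were made from human cell lines in 4 groups of 3. H1299, a cell line from non-small-cell lung cancer, carried either the genotype label DCBLD2 overexpression or the label WT, called labelled control here. THP-1, a line from monocytic leukaemia that becomes macrophage-like after the phorbol ester PMA, was labelled WT throughout, was given PMA for 24 h and was then kept for 48 h with material of the H1299 line labelled DCBLD2 or of its control. The series design describes co-culture and the sample labels describe supernatant, and no THP-1 group without H1299 material, and none without PMA, was analysed here. The labels name no clone, construct or promoter for the overexpression and no empty vector for the control, and do not say whether replicates were separate cultures. Errors and p-values here therefore cover only how these samples vary, and that variation may be technical.

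DCBLD2 itself, a transmembrane protein, was lower in the H1299 libraries labelled DCBLD2 (98.4 TPM ± 6.03) than in those labelled control (197 TPM ± 49.4, SD, n = 3 each). The quasi-likelihood test of edgeR gave it a log2 fold change of -1.27 ± 0.17 (SE; adjusted p = 0.00284). This goes against the label, so groups are called by their labels and every direction is labelled DCBLD2 against labelled control. DCBLD2 was also lower in THP-1 labelled DCBLD2 (6.47 TPM ± 0.18) than in THP-1 labelled control (11.9 TPM ± 0.41, SD, n = 3 each). There the label names the H1299 material and not the genotype of the THP-1 cells. TPM is a level per transcript length, scaled to the same total in every library. CPM is a read count scaled to library size, with no correction for length. The depth of a library was 18606739 to 26787853 estimated reads in THP-1, against 14578887 to 23388187 in H1299. The 16 carcinoma and adherent-cell markers summed to 2670 to 3253 TPM in H1299 libraries labelled DCBLD2 and 3416 to 3669 TPM in those labelled control. In THP-1 their sum was 265 to 278 TPM in libraries labelled DCBLD2 and 344 to 357 TPM in those labelled control. The THP-1 level of these markers had a median of 7.99% of the H1299 level, and they ran over a wide range, with KRT19 at 0 in THP-1, the keratins KRT18, KRT8 and KRT7 at 0.0526%, 0.0808% and 29.3%, CAV1 at 49.4%, TEAD1 at 87.9% and LAMC1 at 205%. The 12 myeloid markers summed to 10590 to 10803 TPM in THP-1 labelled DCBLD2 and 8628 to 8670 TPM in THP-1 labelled control. In H1299 they summed to 202 to 205 TPM in libraries labelled DCBLD2 and 143 to 145 TPM in those labelled control. Most of the H1299 sum was CD68, a lysosomal protein found beyond myeloid cells. It had a mean of 198 TPM in H1299 labelled DCBLD2 and 136 TPM in H1299 labelled control. PTPRC, another of the listed markers, was at 0 in both. In the same THP-1 libraries, mitochondrially encoded genes took 2.46% to 2.58% of reads against 3.48% to 3.51%, and ribosomal protein genes 5.14% to 5.42% against 3.73% to 3.75%. The part of these shifts in the results on THP-1 was not tested. In bulk RNA, fewer cells that express a gene and less RNA of it per cell cannot be told apart.

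IGF1 and IGF2 are peptide growth factors that signal mainly through the tyrosine kinase IGF1R, by way of IRS adaptors, PI3K and AKT. The IGF-binding proteins are secreted carriers that hold IGFs away from the receptor or release them on proteolysis, and several also bind cell surfaces without IGF. IGF2R, the cation-independent mannose 6-phosphate receptor, sorts lysosomal enzymes and carries IGF2 to lysosomes for breakdown.

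Promoter sequences were looked up for the members, and 7 of 8 matched a RefSeq entry (GRCh38.p14), the exception being IGFBP7. The 3 shown are those of the member with the largest fold change in H1299 (IGFBP4), of the member with the largest in THP-1 (IGFBP5) and of the most abundant member (IGFBP3). Each is the 250 bases before the start of the RefSeq entry, 5′ to 3′ on the gene's strand. These starts can differ from the GENCODE 29 positions given further below. The IGFBP3 window lies inside the GENCODE 29 span of its gene, and the IGFBP6 window does so in part. IGFBP4 lies at chr17:40443200-40443449 on the plus strand, IGFBP5 at chr2:216695550-216695799 on the minus strand and IGFBP3 at chr7:45921273-45921522 on the minus strand. Capitals mark TATAAA (the TATA box) and GGGCGG (the GC box) on either strand.
IGFBP4: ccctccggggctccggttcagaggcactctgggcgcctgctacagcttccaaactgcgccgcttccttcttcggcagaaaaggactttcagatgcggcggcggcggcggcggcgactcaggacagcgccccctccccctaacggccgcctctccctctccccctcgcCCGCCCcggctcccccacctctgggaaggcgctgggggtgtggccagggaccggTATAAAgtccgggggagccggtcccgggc
IGFBP5: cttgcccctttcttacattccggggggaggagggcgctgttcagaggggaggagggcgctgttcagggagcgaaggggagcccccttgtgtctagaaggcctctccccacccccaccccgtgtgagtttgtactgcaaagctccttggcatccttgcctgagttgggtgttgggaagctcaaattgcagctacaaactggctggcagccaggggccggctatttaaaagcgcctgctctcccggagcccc
IGFBP3: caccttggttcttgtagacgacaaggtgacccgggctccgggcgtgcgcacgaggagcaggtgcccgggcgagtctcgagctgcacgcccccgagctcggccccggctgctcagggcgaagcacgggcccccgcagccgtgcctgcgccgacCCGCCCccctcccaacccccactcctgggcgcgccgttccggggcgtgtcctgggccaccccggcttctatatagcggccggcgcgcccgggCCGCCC
The IGFBP4 window held TATAAA 29 bases before the start and 1 GC box, the IGFBP3 window held 2 GC boxes, and the IGFBP5 window held neither motif. Over the windows of the same length in the RefSeq table, 35116 in all, 10.7% held TATAAA and 42.6% held GGGCGG. Of the other matched members, none held TATAAA, and IGFBP2, IGFBP6, IGF1R and IGF2R held 1, 1, 2 and 6 matches to GGGCGG, some of those in IGF2R overlapping. None of the 7 windows held CCAAT (the CCAAT box), TGANTCA (AP-1) or TTCNNNGAA (STAT) on either strand. These were found in 32.0%, 6.57% and 6.57% of all windows. A match is a run of letters and not a bound site, and no match says only that these letters are absent from the window.

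Each cell line had its own makeup of IGF-binding protein transcripts. In THP-1 nearly all of it was IGFBP3, which made up 97.6% ± 0.08 of the summed TPM of the 6 genes in libraries labelled DCBLD2 and 97.4% ± 0.08 in those labelled control (SD, n = 3 each). In H1299 libraries labelled DCBLD2, IGFBP3 held 53.7% ± 5.99, IGFBP6 33.9% ± 5.48, IGFBP4 7.05% ± 0.35 and IGFBP2 5.32% ± 0.82. In H1299 libraries labelled control, IGFBP3 held 38.6% ± 9.76, IGFBP6 35.2% ± 7.76, IGFBP4 24.0% ± 2.84 and IGFBP2 2.10% ± 0.64. The H1299 groups thus stood furthest apart in IGFBP4. The summed level was 3345 TPM ± 55.8 in THP-1 labelled DCBLD2 and 2252 TPM ± 21.3 in THP-1 labelled control, and 145 TPM ± 24.4 in H1299 labelled DCBLD2 and 201 TPM ± 0.42 in H1299 labelled control.

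**Figure D1:**
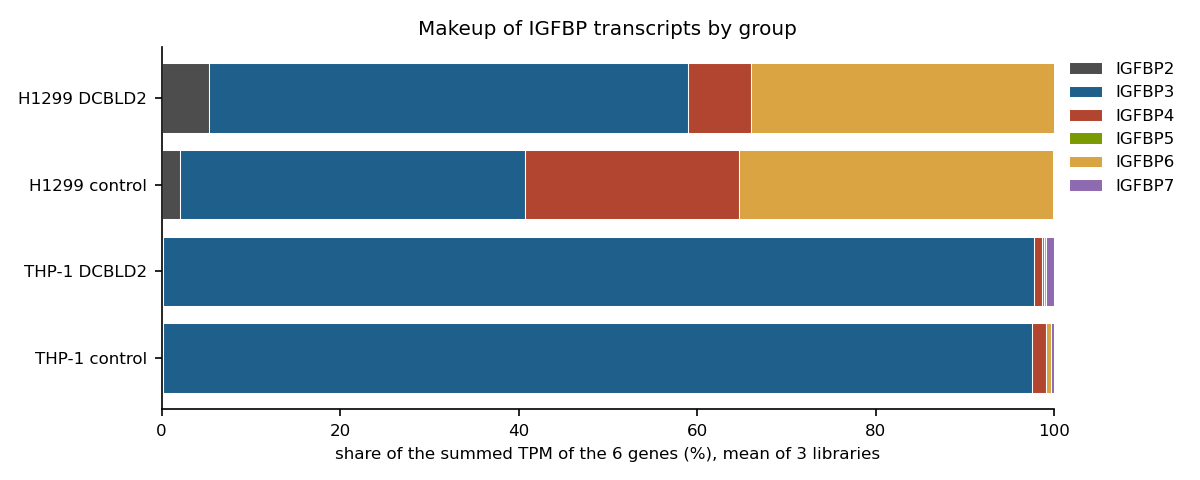
Share of each IGF-binding protein gene in the summed TPM of the 6 genes (%), as the mean of 3 libraries per labelled group. IGFBP3 takes over 97% of both THP-1 bars, and IGFBP4 takes 7.05% in H1299 labelled DCBLD2 and 24.0% in H1299 labelled control.

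**Figure D2:**
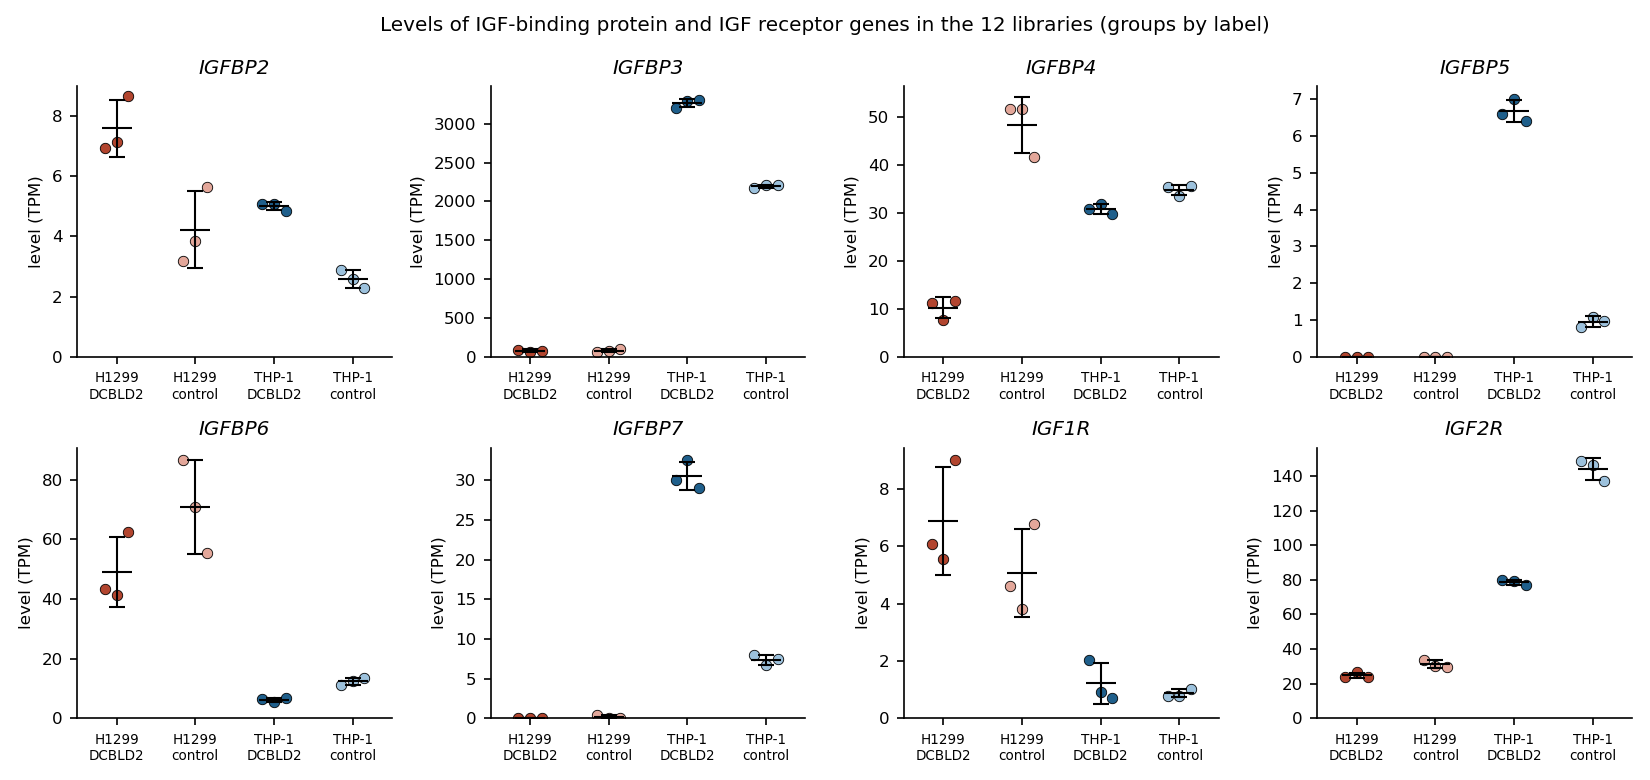
Level (TPM, linear axes from 0) of each of the 8 genes in every library, with the group mean and SD as bars (n = 3). IGFBP3, IGFBP5, IGFBP7 and IGF2R lie higher in all THP-1 libraries than in all H1299 libraries, and IGFBP6 and IGF1R lie lower.

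Fold changes were computed from estimated reads in a fit of 6 libraries per cell line, and genes with an adjusted p under 0.05 were called. In H1299, 6 of the 8 members had enough reads to be tested, of which 1 was higher (IGFBP2), 1 was lower (IGFBP4) and 4 were not called. Over all genes tested in H1299, 20.9% were called, 10.3% as higher and 10.6% as lower. In THP-1 all 8 were tested, 4 were higher (IGFBP2, IGFBP3, IGFBP5 and IGFBP7) and 4 were lower (IGFBP4, IGFBP6, IGF1R and IGF2R), where 68.1% of all genes tested were called, 34.5% as higher and 33.6% as lower. By TPM, the groups did not overlap for 3 of 6 tested members in H1299 (37.5% of all genes tested) and for 7 of 8 in THP-1 (64.9%). The median log2 fold change of the tested members was -0.08 in H1299 and 0.24 in THP-1, against 0.0047 and 0.00046 over all genes tested.

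**Figure D3:**
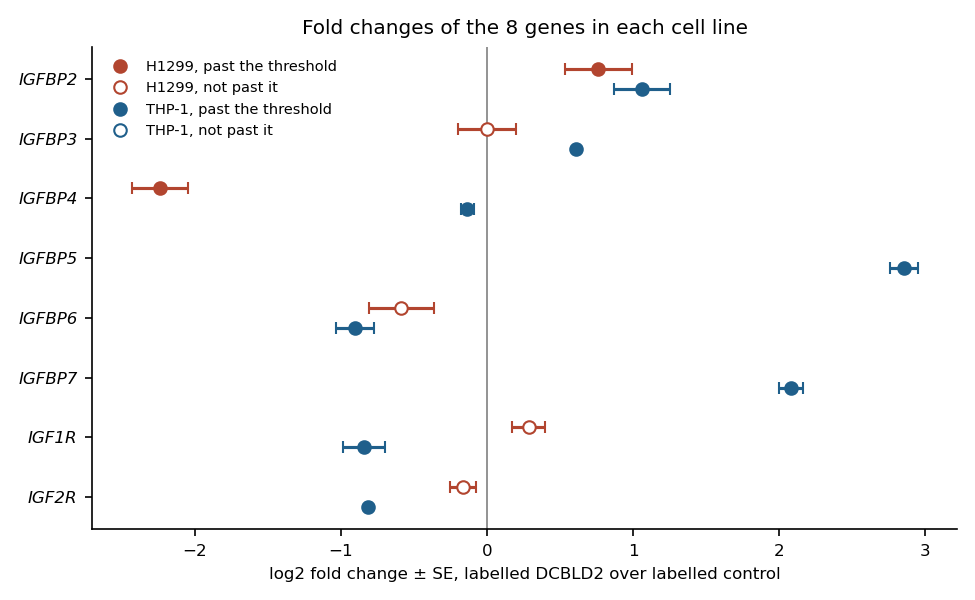
Log2 fold change ± SE of labelled DCBLD2 over labelled control for the 8 genes in H1299 and THP-1, from edgeR. Filled points passed an adjusted p under 0.05. IGFBP5 (2.85) and IGFBP7 (2.08) have points in THP-1 only because too few H1299 reads were counted, and IGFBP4 is at -2.24 in H1299 and -0.13 in THP-1.

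Among the carriers, IGFBP3, the main IGF carrier of the circulation, was the most abundant member. In THP-1 it had 3202, 3295 and 3300.4 TPM in the libraries labelled DCBLD2, against 2169, 2207 and 2205 TPM in those labelled control. The 3 libraries labelled DCBLD2 were all above the 3 labelled control, with a log2 fold change of 0.61 ± 0.01 (1.53-fold). The gene ranked 28th by mean TPM in THP-1 labelled DCBLD2 and 44th in THP-1 labelled control. In H1299 it had 93.9, 60.6 and 78.9 TPM in libraries labelled DCBLD2, against 59.4, 75.4 and 98.1 TPM in those labelled control. These ranges overlapped almost wholly, with means of 77.8 ± 16.7 and 77.6 ± 19.5 TPM (SD, n = 3 each) and a log2 fold change of -0.00059 ± 0.20.

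IGFBP4, a carrier that is cleaved by the protease PAPPA in the presence of IGF and mostly restrains IGF action, was the member that differed most in H1299. It had 11.3, 7.76 and 11.7 TPM in H1299 labelled DCBLD2, against 51.7, 51.7 and 41.6 TPM in H1299 labelled control. The groups were far apart, and the log2 fold change was -2.24 ± 0.19, a level 0.211 times that of the control. In THP-1 the values were 30.9, 31.8 and 29.9 TPM in libraries labelled DCBLD2, against 35.3, 33.6 and 35.6 TPM in those labelled control. These ranges were close without overlapping, and the log2 fold change of -0.13 ± 0.04 lost its call without labelled DCBLD2 library 3 (-0.11). The gene has 1 annotated transcript (GENCODE 29), so transcript choice does not enter its level.

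IGFBP2, a carrier with an integrin-binding motif, was low in both lines and higher in the libraries labelled DCBLD2. In H1299 it had 6.95, 7.14 and 8.68 TPM in those labelled DCBLD2, against 3.18, 3.84 and 5.65 TPM in those labelled control. The groups did not overlap, and the log2 fold change was 0.76 ± 0.23. That call was lost without labelled control library 1 (0.58) and without any 1 of the labelled DCBLD2 libraries (0.77, 0.85 and 0.64). In THP-1 it had 5.09, 5.08 and 4.86 TPM in libraries labelled DCBLD2, against 2.88, 2.59 and 2.30 TPM in those labelled control. The groups did not overlap there either, with a log2 fold change of 1.06 ± 0.19. These levels rest on few reads, 27 to 113 per library.

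IGFBP5, a carrier that binds extracellular matrix, had no read in any of the 6 H1299 libraries. Against a total of 118496256 reads, a count of 0 allows up to 0.0253 CPM (3 reads over the 6 libraries, counting error only). In THP-1 it had 6.60, 7.01 and 6.42 TPM in libraries labelled DCBLD2, against 0.804, 1.09 and 0.969 TPM in those labelled control. The groups were wide apart, with 1684 reads over the 3 libraries labelled DCBLD2 and 207 over the 3 labelled control, and the log2 fold change was 2.85 ± 0.10 (7.23-fold). Against that H1299 floor, THP-1 labelled DCBLD2 was at least 949-fold higher and THP-1 labelled control at least 125-fold higher, in CPM. With 0 reads in H1299, the THP-1 reads cannot be given as a share of an H1299 level.

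IGFBP7, a secreted protein of the family that binds insulin and has low affinity for IGFs, showed the same order of groups in THP-1. It had 30.0, 32.5 and 29.1 TPM in THP-1 labelled DCBLD2, against 8.01, 6.71 and 7.42 TPM in THP-1 labelled control. The groups did not overlap, and the log2 fold change was 2.08 ± 0.08 (4.24-fold). In H1299 it had 9.02 estimated reads in all 6 libraries together, of which 7.02 were in labelled control library 1, and it was not tested there. The span of the gene overlaps those of POLR2B and IGFBP7-AS1 on the opposite strand, and the sources used here do not give strand handling. Overlap of exons was not looked up, and whether reads of those genes entered the count of IGFBP7 was not tested.

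IGFBP6, a carrier that prefers IGF2, was mostly a gene of the H1299 libraries. In H1299 it had 43.4, 41.2 and 62.5 TPM in libraries labelled DCBLD2, against 86.7, 70.7 and 55.3 TPM in those labelled control. The ranges overlapped, and the log2 fold change of -0.59 ± 0.22 was not called. Without labelled control library 3 (-0.77) or labelled DCBLD2 library 3 (-0.84) it passed the threshold. In THP-1 it had 6.33, 5.55 and 6.74 TPM in libraries labelled DCBLD2, against 11.2, 12.5 and 13.4 TPM in those labelled control. Those groups did not overlap, and the log2 fold change was -0.90 ± 0.13. The summed carcinoma and adherent-cell markers had the same order in the same THP-1 libraries, with 265 to 278 TPM in those labelled DCBLD2 and 344 to 357 TPM in those labelled control. Of the 16 markers, 6 had the higher mean in THP-1 labelled DCBLD2 (KRT8 and KRT18 among them), 9 had the lower one (among them AXL, CAV1 and LAMC1) and 1 was at 0 in both groups. The part of these markers in the IGFBP6 result was not tested.

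IGF2R was the more abundant receptor in each group. In THP-1 it had 79.7, 79.3 and 77.0 TPM in libraries labelled DCBLD2, against 149, 146 and 137 TPM in those labelled control. The groups lay far apart, with a log2 fold change of -0.81 ± 0.02 (0.569-fold). In H1299 it had 24.0, 26.6 and 23.7 TPM in libraries labelled DCBLD2, against 33.8, 30.0 and 29.8 TPM in those labelled control. The groups did not overlap in TPM either, but the fitted log2 fold change of -0.17 ± 0.09 was not called. The gene overlaps the antisense transcript AIRN.

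IGF1R, the signalling receptor, gave opposite orders of the THP-1 group means in CPM and in TPM. In CPM it had 3.95, 3.54 and 2.85 in THP-1 labelled DCBLD2, against 6.02, 6.02 and 6.65 in THP-1 labelled control. On this scale the groups did not overlap, and the log2 fold change was -0.84 ± 0.14. In TPM the values were 2.02, 0.933 and 0.704 in libraries labelled DCBLD2, against 0.789, 0.795 and 1.03 in those labelled control, and the ranges overlapped. Tests on log2(TPM + 1) and log2(TPM + 0.1) gave 0.20 and 0.32, neither of them called. The number of IGF1R reads behind 1 TPM, scaled for depth, differed up to 4.06-fold between libraries. The same range was 1.00046-fold for IGFBP4 and had a median of 1.10-fold over 8289 genes. IGF1R has 19 annotated transcripts, and TPM divides by a length estimated per library. Whether transcript choice differed was not tested.

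**Figure D4:**
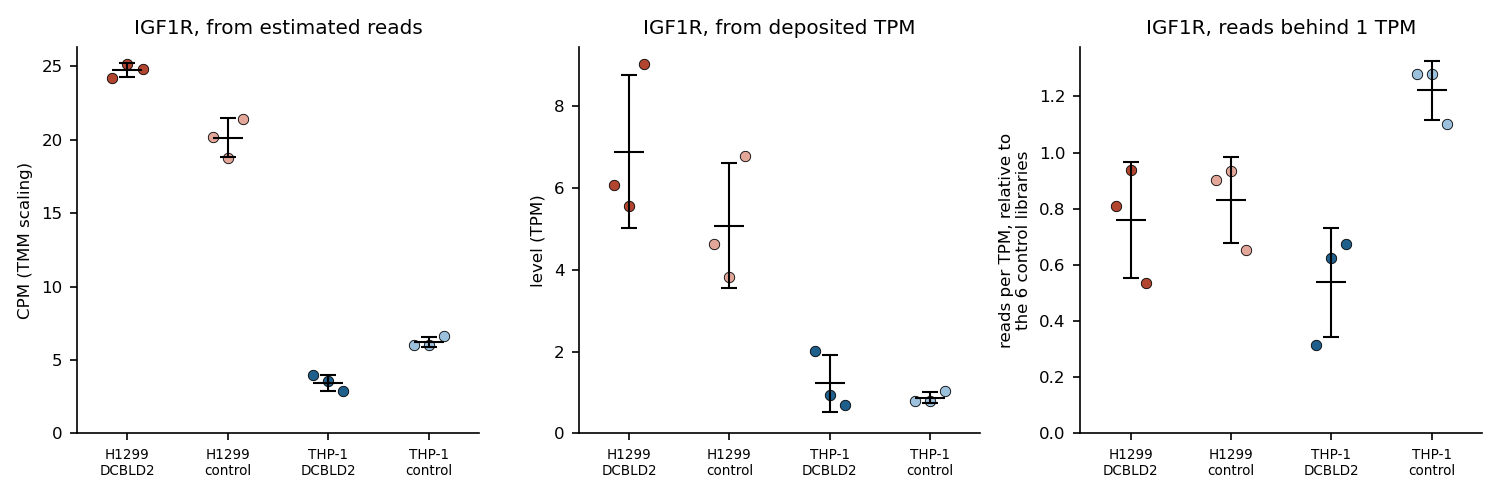
IGF1R in every library on 3 linear scales from 0: CPM with TMM scaling, TPM, and reads behind 1 TPM relative to the 6 control libraries, with the group mean and SD (n = 3). In THP-1 the labelled DCBLD2 libraries lie below the labelled control ones in CPM (2.85 to 3.95 against 6.02 to 6.65) and overlap them in TPM.

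In H1299, IGF1R had 24.2, 25.1 and 24.8 CPM in libraries labelled DCBLD2, against 20.2, 18.8 and 21.4 in those labelled control. The groups did not overlap on this scale, but the log2 fold change of 0.29 ± 0.11 was not called. In TPM the H1299 ranges overlapped, at 5.56 to 9.02 in libraries labelled DCBLD2 and 3.82 to 6.79 in those labelled control. The ratio of IGF2R to IGF1R in TPM was 39.5 to 109 in THP-1 labelled DCBLD2 and 133 to 188 in THP-1 labelled control. In H1299 it was 2.63 to 4.78 in libraries labelled DCBLD2 and 4.39 to 7.85 in those labelled control. The THP-1 ratios did not overlap and the H1299 ones did, and both carry the uncertainty of IGF1R in TPM.

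Ordered by mean TPM over the 4 groups, the members fell into different patterns. IGFBP3, IGFBP5 and IGFBP7 were highest in THP-1 labelled DCBLD2, then in THP-1 labelled control, and their H1299 groups overlapped at the bottom. IGF2R was highest in THP-1 labelled control, followed by THP-1 labelled DCBLD2, H1299 labelled control and H1299 labelled DCBLD2, with no overlap between neighbours. IGFBP4 was lowest in H1299 labelled DCBLD2, above it came THP-1 labelled DCBLD2 and THP-1 labelled control, and H1299 labelled control was highest, again with no overlap. IGFBP6 was highest in the H1299 groups, which overlapped. IGF1R was highest in the H1299 groups too, and its groups overlapped within each line. IGFBP2 was highest in H1299 labelled DCBLD2 and lowest in THP-1 labelled control, and the ranges of THP-1 labelled DCBLD2 and H1299 labelled control overlapped between them.

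Whether the fold change differed between the cell lines was fitted over all 12 libraries, as the THP-1 log2 fold change minus that of H1299. Of the 6 members tested in both lines, 2 had a higher value in THP-1 (IGFBP3 at 0.60 ± 0.22 and IGFBP4 at 2.10 ± 0.20). Another 2 had a lower one (IGF1R at -1.15 ± 0.16 and IGF2R at -0.66 ± 0.08). IGFBP2 (0.29 ± 0.29) and IGFBP6 (-0.33 ± 0.29) did not pass. Over all genes tested 38.7% passed, 19.3% as higher and 19.5% as lower. Because the fit shares the libraries of both responses, which the choice of members used, nothing is read from these counts. The value of IGFBP3 lost its call in several alternatives, among them leaving out any 1 THP-1 library (0.60 to 0.61), H1299 labelled control library 3 (0.50) or H1299 labelled DCBLD2 library 2 (0.49). The value of IGF1R was -0.18 on log2(TPM + 1) and was not called there. No value is given for IGFBP5 and IGFBP7, which had too few H1299 reads.

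The members lie on 7 chromosomes (GENCODE 29, GRCh38). IGFBP2 (chromosome 2, 216632828 to 216664436, plus strand) and IGFBP5 (216672105 to 216695525, minus strand) are neighbours that end towards each other, 7668 bases apart with no coding gene between them. In THP-1 both were higher in the libraries labelled DCBLD2, and in H1299 IGFBP2 was read and IGFBP5 was not. IGFBP3 (chromosome 7, 45912245 to 45921874, minus strand) lies 18576 bases from IGFBP1, which had 6 and 13 reads in the H1299 libraries labelled DCBLD2 and labelled control and 0 in THP-1. IGFBP7 lies on chromosome 4 (57030773 to 57110385, minus strand), IGFBP6 on chromosome 12 (53097436 to 53102345, plus strand) and IGFBP4 on chromosome 17 (40443461 to 40457731, plus strand). IGF2R lies on chromosome 6 (159969099 to 160113507, plus strand) and IGF1R on chromosome 15 (98648539 to 98964530, plus strand).

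For each member, the genes with the most similar profile were taken as those with the smallest root mean square difference of centred log2(TPM + 1) over the 12 libraries, among 10082 genes. The closest match of all was SLC20A2, a phosphate transporter, to IGF2R (0.07), followed by PLIN2, a lipid droplet protein (0.12), and DNM1 (0.13). IGFBP7 was closest to CADM1 (0.20) and to OAS2 (0.21) and OAS1 (0.25), which are interferon-induced antiviral enzymes. IGFBP3 was closest to EVI2B (0.18), SNCB (0.18) and RCAN1 (0.20), and IGFBP2 to SLC13A3 (0.20), PGGT1B (0.21) and TTC39B (0.22). IGFBP6 was closest to GPAT3 (0.25), CDCP1 (0.26) and TNS2 (0.26), and IGF1R to TTC27 (0.24), ZNF544 (0.25) and DNAJB4 (0.26). The matches of IGFBP5 (TEX9 at 0.33, KCTD12 at 0.36 and GUK1 at 0.37) and IGFBP4 (LCMT2 at 0.39, ABCB9 at 0.40 and PITX1 at 0.41) were the loosest by this distance. It does not allow for how far each member itself varied. The root mean square of the member's own centred values was 0.48 for IGFBP2, 0.82 for IGFBP4, 1.20 for IGFBP5 and 2.57 for IGFBP3. These profiles hold the differences between the cell lines as well as those between the labelled groups.

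Beside the members, the ligands were close to absent. IGF1 had 2 reads in THP-1 labelled DCBLD2, 1 in H1299 labelled DCBLD2 and 0 in both control groups. IGF2 had 15 reads in THP-1 labelled DCBLD2 and 13 in THP-1 labelled control, and 1 and 0 in H1299 labelled DCBLD2 and labelled control. None of the 4 genes listed as ligands and binding partners had enough reads to be tested. The lines therefore held transcripts of carriers and receptors with few of the ligands.

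Of the other 65 pathway genes, 51 were tested in H1299, and 14 of them were higher, 5 lower and 32 not called, where 10.3% of all genes tested were higher and 10.6% lower. Their median log2 fold change was 0.07, against 0.0047 over all genes tested. In THP-1, 51 were tested, and 16 of them were higher, 21 lower and 14 not called, where 68.1% of all genes tested were called, 34.5% as higher and 33.6% as lower. Their median was -0.03, against 0.00046. The H1299 count of 19 fell to 3 without labelled DCBLD2 library 2, to 6 without library 1 and to 9 without library 3 or without labelled control library 3. Adjusted p-values below are from edgeR's quasi-likelihood test over all genes.

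Of the relatives of the IGF-binding proteins, CCN1 and CCN2, matrix-associated proteins that are known targets of YAP, were higher in H1299. CCN1 averaged 1666 TPM ± 51.3 in H1299 labelled DCBLD2 and 753 TPM ± 52.1 in H1299 labelled control (SD, n = 3 each), with a log2 fold change of 1.14 ± 0.09 (adjusted p = 0.000246). CCN2 had a log2 fold change of 0.71 ± 0.13 (adjusted p = 0.00677). CCN3 (-0.82 ± 0.18, adjusted p = 0.0147) and IGFBPL1 (-0.66 ± 0.17, adjusted p = 0.0229) were lower. In all, 2 of the 5 tested relatives were higher and 2 lower in H1299, where 20.9% of all genes tested were called. In THP-1, 0 of 6 were higher and 2 were lower, where 68.1% of all genes were called, with CCN3 at -0.70 ± 0.20 (adjusted p = 0.00313), and CCN1 was not called (-0.01 ± 0.06). The calls of CCN1 and CCN2 held without any 1 H1299 library, whereas CCN3 lost its call without labelled DCBLD2 library 2 (-0.73). IGFBPL1 lost its call without that library (-0.52), labelled DCBLD2 library 3 (-0.69) or labelled control library 3 (-0.54).

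Of the proteases that cut IGF-binding proteins and their inhibitors, 4 of 8 tested were higher and 0 lower in H1299, where 10.3% of all genes tested were higher, and 4 of 7 were higher and 0 lower in THP-1, where 34.5% were higher. The metalloprotease ADAM9 averaged 84.8 TPM ± 15.8 in H1299 labelled DCBLD2 and 51.6 TPM ± 12.1 in H1299 labelled control, and its log2 fold change was 0.71 ± 0.16 (adjusted p = 0.0157). In THP-1 it averaged 99.1 TPM ± 1.70 in libraries labelled DCBLD2 and 70.3 TPM ± 1.90 in those labelled control (0.53 ± 0.03, adjusted p = 1.05e-15). STC2, a stanniocalcin that inhibits the protease PAPPA, was higher in THP-1 (17.9 TPM ± 0.39 in labelled DCBLD2 and 7.03 TPM ± 0.31 in labelled control). Its log2 fold change was 1.37 ± 0.06 (adjusted p = 5.02e-17), and its relative STC1, with 315 TPM ± 2.77 and 277 TPM ± 2.64 in the same groups, rose by 0.22 ± 0.02 (adjusted p = 1.32e-11). That call of STC1 was lost in the fit of all 12 libraries and with the common dispersion of H1299 (0.22 in both). PAPPA itself had 0 reads in THP-1, and 6 and 26 in H1299 labelled DCBLD2 and labelled control. ADAM17 rose in H1299 by 0.54 ± 0.13 (adjusted p = 0.0194). ADAM9 lost its H1299 call without labelled DCBLD2 library 2 (0.60), and ADAM17 without that library (0.51), labelled DCBLD2 library 1 (0.50) or labelled control library 3 (0.54). The genes called in H1299 besides ADAM9 and ADAM17 averaged under 1 TPM in each H1299 group. The same held in THP-1 besides ADAM9, STC2 and STC1.

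Of the 7 cell-surface proteins that bind IGF-binding proteins, LRP1 was called higher in H1299 and lower in THP-1. LRP1, an endocytic receptor that binds IGFBP3, averaged 10.6 TPM ± 1.20 in H1299 labelled DCBLD2 and 4.92 TPM ± 0.74 in H1299 labelled control, a log2 fold change of 1.14 ± 0.15 (adjusted p = 0.00256). In THP-1 it averaged 27.0 TPM ± 0.80 in libraries labelled DCBLD2 and 40.5 TPM ± 0.70 in those labelled control (-0.56 ± 0.02, adjusted p = 5.34e-18). The difference between the lines was -1.72 ± 0.15 (adjusted p = 2.55e-06). TMEM219, a death receptor for IGFBP3, was higher in THP-1 (0.53 ± 0.03, adjusted p = 1.64e-14), and the integrin subunits ITGB3 (-0.86 ± 0.02, adjusted p = 2.48e-21) and ITGA5 (-0.54 ± 0.01, adjusted p = 3.73e-21) were lower. In all, 2 of 6 tested were higher and 0 lower in H1299, the other called gene being ITGB1 (0.56 ± 0.15, adjusted p = 0.0307), where 10.3% of all genes tested were higher and 10.6% lower. In THP-1, 4 of 7 were higher, ITGB1 among them (0.12 ± 0.02, adjusted p = 5.11e-06), and 3 were lower, where 34.5% and 33.6% of all genes were. The call of ITGB1 in H1299 was lost without labelled control library 3 (0.54) or any 1 of the labelled DCBLD2 libraries (0.56, 0.49 and 0.60).

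Of the receptors and adaptors, the insulin receptor INSR was lower in THP-1 (9.30 TPM ± 0.09 in labelled DCBLD2 and 12.5 TPM ± 0.10 in labelled control), with a log2 fold change of -0.31 ± 0.04 (adjusted p = 2.53e-07). Its log2 fold change in H1299 was -0.48 ± 0.20 and was not called (adjusted p = 0.111). IRS2, an adaptor of IGF1R and INSR, averaged 42.3 TPM ± 0.59 in THP-1 labelled DCBLD2 and 65.9 TPM ± 0.94 in THP-1 labelled control (-0.60 ± 0.02, adjusted p = 1.36e-18). IRS1 was not called in THP-1 (0.03 ± 0.04, adjusted p = 0.498) or in H1299 (-0.36 ± 0.12, adjusted p = 0.0625). GRB10, an adaptor that inhibits both receptors, rose in THP-1 by 0.72 ± 0.05 (adjusted p = 1.19e-12), and SHC1 by 0.16 ± 0.02 (adjusted p = 2.97e-07). SHC1 lost its call in the fit of all 12 libraries and with the common dispersion of H1299 (0.16 in both), and INSR lost its THP-1 call with that dispersion (-0.31). GRB14, a related adaptor, was higher in H1299 (0.80 ± 0.20, adjusted p = 0.0242) and lost that call without labelled DCBLD2 library 1 (0.77) or 2 (0.75).

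In the PI3K and AKT arm, 5 of 16 genes were higher and 9 lower in THP-1, where 68.1% of all genes tested were called, and 3 were higher and 3 lower in H1299, where 20.9% were called. PIK3R1, the regulatory subunit of PI3K, averaged 16.0 TPM ± 2.46 in THP-1 labelled DCBLD2 and 7.69 TPM ± 1.12 in THP-1 labelled control (1.24 ± 0.05, adjusted p = 6.14e-17). The kinases AKT1 (0.57 ± 0.03, adjusted p = 3.18e-15) and AKT2 (0.26 ± 0.03, adjusted p = 1.84e-09) were higher there. The THP-1 genes named were picked by smallest p, and the 9 lower ones are not named here. The median log2 fold change of the 16 genes in THP-1 was -0.13, against 0.00046 over all genes tested. In H1299, PIK3CA, a catalytic subunit, was higher (0.76 ± 0.22, adjusted p = 0.0358). AKT2 (-0.36 ± 0.10, adjusted p = 0.0284) and PIK3R2 (-0.36 ± 0.11, adjusted p = 0.0381) were lower. Each of these 3 H1299 calls was lost without labelled DCBLD2 library 2 (PIK3CA 0.70, AKT2 -0.30, PIK3R2 -0.34), and each was lost without at least 1 other library.

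Of the genes that work with IGF2R in mannose 6-phosphate sorting, 1 of 7 was higher and 4 were lower in THP-1, a share near the 68.1% called over all genes tested there, and 0 of 7 were called in H1299, where 20.9% of all genes were. M6PR, the smaller mannose 6-phosphate receptor, averaged 104 TPM ± 2.38 in THP-1 labelled DCBLD2 and 141 TPM ± 4.87 in THP-1 labelled control (-0.38 ± 0.02, adjusted p = 4.56e-13). The clathrin adaptors GGA2 (-0.49 ± 0.03, adjusted p = 5.03e-13) and GGA1 (-0.25 ± 0.03, adjusted p = 1.19e-07) were lower too. GNPTG, a subunit of the enzyme that adds the phosphate tag, was higher (0.32 ± 0.04, adjusted p = 1.45e-07). Of the IGF2 mRNA-binding proteins, IGF2BP3 (0.47 ± 0.13, adjusted p = 0.0308) and IGF2BP2 (0.30 ± 0.09, adjusted p = 0.0387) were higher in H1299. In THP-1, IGF2BP2 was lower by a small step (-0.09 ± 0.03, adjusted p = 0.00639) and lost that call without labelled DCBLD2 library 2 (-0.06). The 2 H1299 calls were lost without any 1 of several libraries, at 0.35 to 0.54 for IGF2BP3 and 0.26 to 0.34 for IGF2BP2 over all 6 omissions.

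**Figure D5:**
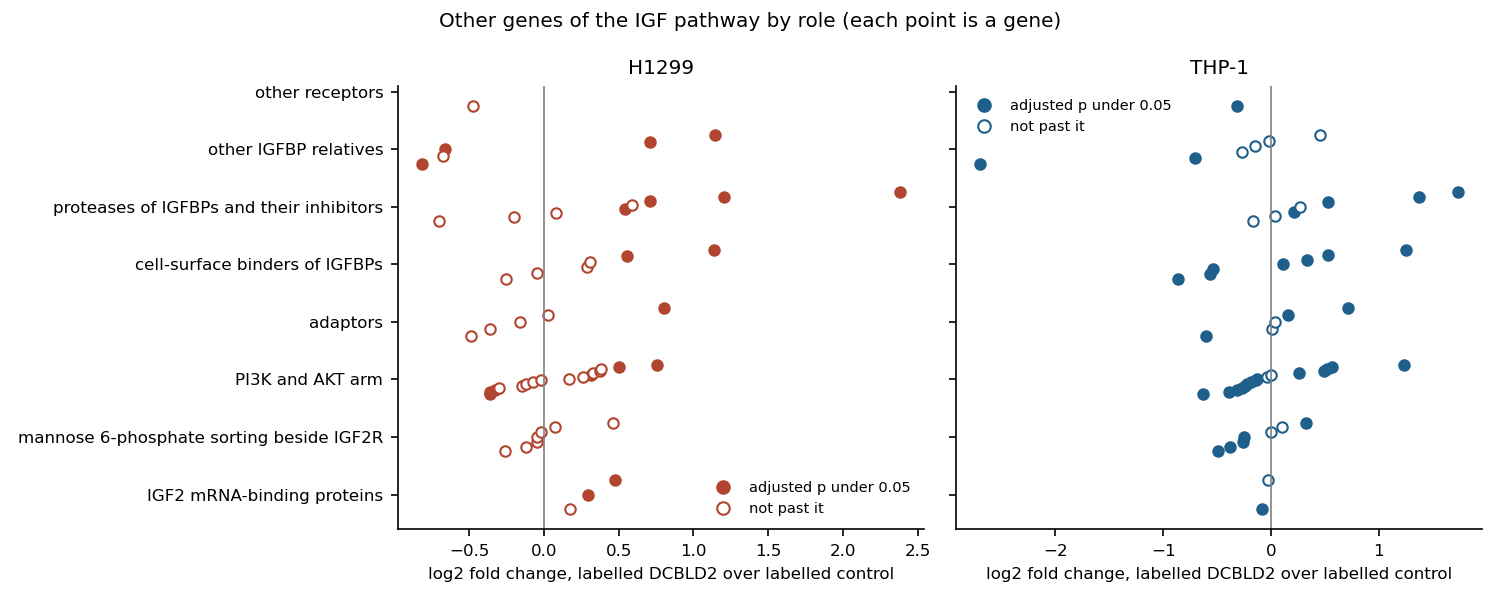
Log2 fold change of labelled DCBLD2 over labelled control for the other tested IGF pathway genes, one point per gene, by role, in H1299 (left) and THP-1 (right). Filled points passed an adjusted p under 0.05: 14 higher and 5 lower in H1299, 16 higher and 21 lower in THP-1.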

How the data were processed

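RNA was extracted with Trizol and libraries were made from fragmented mRNA with a NEBNext Ultra kit, per the labels' protocols. The submitters' processing notes name hg38, RSEM, StringTie 1.3.1, HISAT2, Bowtie2 2.2.8 and fastp 0.18.0. Neither annotation release nor strand handling is stated in the sources used here. The authors deposited TPM, a level scaled to transcript length, and estimated counts, which were not normalized, for 20307 genes. Between 12.0% and 13.4% of the estimated counts per library were not exactly whole. 98.9% of the identifiers were found in GENCODE 29.

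Estimated counts were rounded and tested with edgeR 4.0.16 (R 4.3.3, quasi-likelihood, TMM, filterByExpr minimum of 10 counts), in 1 fit of 6 libraries per cell line and 1 of all 12 for the difference. P-values were adjusted over all genes tested (Benjamini-Hochberg), and SE is the log2 fold change divided by the root of the F statistic. The steps were tested on simulated data. CPM values use TMM over 12 libraries. Replicates of 1 group differed by more than sampling noise (chi-square per gene 1.55 to 2.30 in THP-1 and 10.8 to 36.6 in H1299), and all were counted.

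Genes named are the 8 members, DCBLD2, at most 4 called genes per pathway role and comparison with the smallest p and at least 1 TPM in a group, IGF1, IGF2, INSR, IRS1 and IRS2, and the 3 closest profiles per member. IGFBP1 and PAPPA are outside that rule and were named after their values were seen. Some genes that the rule names are left out of the text. The members and lists were chosen with earlier results of these data known. The alternatives tried were DESeq2 1.42.0, its size factors in edgeR, a block for the replicate number, each library left out, a filter at a mean of 10 counts, no filter, limma 3.58.1 on log2(TPM + 1) and log2(TPM + 0.1), all 12 libraries in 1 fit and, for THP-1, the common dispersion of H1299.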

Additional observations from a re-analysis of the deposited data

Results flagged for a closer look

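These genes are listed because their log2 fold change in THP-1 minus that in H1299 passed an adjusted p under 0.05 in edgeR's fit over all 12 libraries. For the members, which were chosen with the values known, this is no independent support. Among them the differences were 2.10 for IGFBP4, 0.60 for IGFBP3, -0.66 for IGF2R and -1.15 for IGF1R.

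Among the other pathway genes, positive differences were 1.10 for IGFBPL1, 0.86 for AKT1, 0.78 for STC2, 0.61 for AKT2, 0.56 for TMEM219, 0.38 for IRS1 and 0.36 for GNPTG. Negative ones were -1.72 for LRP1, -1.17 for CCN1, -0.87 for CCN2, -0.84 for ITGA5, -0.74 for TSC1, -0.62 for ITGB3, -0.52 for ADAM17, -0.49 for GGA2, -0.39 for IGF2BP2 and -0.34 for GGA3. CCN1 and CCN2 were called higher in H1299 and were not called in THP-1. Of these genes, AKT2 (0.26 in THP-1 and -0.36 in H1299), LRP1 (-0.56 in THP-1 and 1.14 in H1299) and IGF2BP2 (-0.09 in THP-1 and 0.30 in H1299) were called in opposite directions. IGFBPL1 averaged 0.327 TPM in THP-1 labelled DCBLD2 and 0.239 TPM in THP-1 labelled control, so its THP-1 value rests on few reads. The differences of IGFBPL1 and GNPTG lost their calls with the replicate number as a block and without any 1 of several THP-1 libraries. GGA3 lost its call with that block and without H1299 labelled DCBLD2 library 1 or 2. IRS1 lost its call without library 1 of either THP-1 group, and on log2(TPM + 1) and log2(TPM + 0.1). In all, 10 of 54 tested pathway genes had a higher and 16 a lower difference, where 19.3% of all genes tested had a higher and 19.5% a lower one. The count includes GRB10, which had 0 reads in H1299 labelled DCBLD2 and 17 in H1299 labelled control.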

How the results depend on the processing

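The H1299 counts depended on single libraries and on the spread used. Of all genes, 2669 were called in H1299, 514 to 3158 with 1 library left out and 5056 with all 12 libraries in 1 fit. Of the members 2 were called there, 1 to 3 with 1 library left out, and 4 in the fit of all 12. Of the pathway genes 19 were called, 3 to 18 with 1 library left out, 12 by limma on log2(TPM + 0.1) and 31 in the fit of all 12. In THP-1, with the common dispersion of H1299, 4531 genes in place of 8941 and 20 pathway genes in place of 37 were called, and the calls of IGFBP4 (-0.14), INSR (-0.31), STC1 (0.22), SHC1 (0.16), AKT2 (0.26), GGA1 (-0.25), GNPTG (0.32) and IGF2BP2 (-0.08) were lost. Of these, IGFBP4, STC1, SHC1 and IGF2BP2 also lost their THP-1 calls in the fit of all 12. Leaving out 1 library in THP-1 gave 8467 to 8719 genes.

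In H1299, same-numbered samples did not deviate together (correlations of -0.12, -0.28 and -0.27). In THP-1 these correlations were weak (0.03, 0.05 and 0.06), but each labelled DCBLD2 library correlated best with the labelled control of its own number. Correlations this weak cannot settle whether the numbers pair the THP-1 samples, and the main fits used no pairing. With the replicate number as a block, 1797 genes, 1 member and 12 pathway genes were called in H1299, 8990 genes, 8 members and 37 pathway genes in THP-1, and IGFBP2 in H1299 (0.78) and the IGFBP3 difference (0.60) lost their calls.

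IGF1R in THP-1 turned its sign on log2(TPM + 1) (0.20) and log2(TPM + 0.1) (0.32), and the cause was not tested. The log2 ratio of THP-1 labelled control over H1299 labelled control moved to -0.22 in CPM, against -0.47 in TPM, for IGFBP4, to -1.69, against -2.54, for IGF1R and to 2.54, against 2.21, for IGF2R. IGFBP6 in H1299 passed the threshold with DESeq2 (-0.59) and in the fit of all 12 (-0.58). Among the members and the pathway genes named, no other called value changed sign in these alternatives, while IGFBP3 in H1299, not called, lay between -0.17 and 0.17 with 1 library left out. Few reads limit IGFBP2 (27 to 113 per library), and IGFBP5 and IGFBP7 had too few in H1299 to be tested.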
